A study of Eonycteris spelaea and Mus musculus with 51 samples.

Results

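Of the 30017 rows of the bat count table, 761 carry a mouse Ensembl gene identifier in place of a human one. These rows were taken by the form of their identifier alone, and 1 further row of that form was left out. By comparison, 18152 rows of the table carry a human identifier, 10328 are numbered non-coding RNAs, 564 are antisense names and 211 have other names. Lung, muscle and blood were profiled by bulk RNA sequencing in the bat, Eonycteris spelaea (a cave-dwelling nectar feeder), with the mouse for comparison. Control animals were taken before treatment, heat animals at the end of 1 h of heat shock of the living animal, and recovery animals 4 h after such a heat shock. Each of the 9 bat groups of tissue and condition held 3 libraries. The labels give no age, sex or strain. They do not say which libraries come from the same animal, so p-values measure the spread between these libraries, and the later groups differ from control in elapsed time and handling as well as in heat.

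A mouse identifier shows only that the authors' annotation paired the bat gene with a mouse gene. The sources used here do not say how it chose between human and mouse. Of the 761 identifiers, 757 had a symbol in the mouse reference (GENCODE M21, GRCm38), and 724 are protein-coding there. Mammals differ in which copies they keep of olfactory and pheromone receptors, aldehyde oxidases, Toll-like receptors and immune receptor segments. Some single genes, such as Cmah of sialic acid synthesis, Uox of urate breakdown and Gulo of vitamin C synthesis, are inactive in human but active in the mouse. Others among these rows, such as Nol6, Rbak, Plac8 and Ly9, have human genes of the same name, so a mouse identifier is not the same as a gene missing in human.

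Mouse reference sequences show what kinds of gene carry the tissue patterns described further on. Bat sequence was not used here. The first set is the joining segments of the T cell receptor alpha chain, which T cells join behind a variable segment. They are short coding pieces on mouse chromosome 14. All 5 had counts in the bat. The mouse segments are 57 to 66 bases long, and the length of the bat rows was not used here. Capitals mark the codons for phenylalanine, glycine, any residue and glycine, the conserved turn of such segments, searched on the coding strand only. That run occurs in 42 of the 51 mouse alpha joining segments (82.4%) and was not found in Traj3.
Traj15: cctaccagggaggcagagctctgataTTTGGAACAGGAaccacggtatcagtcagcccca
Traj21: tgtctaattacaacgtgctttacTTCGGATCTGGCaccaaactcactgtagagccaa
Traj37: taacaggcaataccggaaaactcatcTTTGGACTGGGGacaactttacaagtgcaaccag
Traj56: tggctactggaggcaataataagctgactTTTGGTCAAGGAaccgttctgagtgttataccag
Traj3: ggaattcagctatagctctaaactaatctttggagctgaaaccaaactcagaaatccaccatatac
They lie, on the plus strand of GRCm38, at chr14:54204422-54204481 (Traj15), chr14:54198790-54198846 (Traj21), chr14:54181518-54181577 (Traj37), chr14:54159263-54159325 (Traj56) and chr14:54217292-54217357 (Traj3).

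The second is the coding sequence of Cox8b, a subunit of cytochrome c oxidase of the mitochondrial respiratory chain, which was the member with the highest mean level in bat muscle. It runs over 213 bases (70 codons and a stop) between chr7:140898988 and chr7:140900342 on the minus strand of GRCm38, with the start and stop codons in capitals.
Cox8b: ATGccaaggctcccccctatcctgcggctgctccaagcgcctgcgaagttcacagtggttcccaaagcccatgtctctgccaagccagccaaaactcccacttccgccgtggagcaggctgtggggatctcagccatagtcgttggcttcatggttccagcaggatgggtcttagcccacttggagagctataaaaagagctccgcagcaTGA

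Many of the 761 rows were silent in these tissues. No count in any of the 27 bat libraries was found for 254 of them, 507 had at least 1 count and 71 had a count in every library. Of the rows with a human identifier, 63.47% had a count in every library, against 9.33% of the mouse-identified rows. The share was 19.69% of numbered non-coding RNA rows, 16.49% of antisense rows and 10.43% of other rows. At least 1 count was found for 66.62% of mouse-identified rows and 96.31% of human-identified rows. For non-coding RNA, antisense and other rows it was 69.7, 64.18 and 49.76%, so low detection was not particular to the mouse-identified rows. The 761 rows together held 0.1587% of lung, 0.0606% of muscle and 0.141% of blood counts. A mean of at least 1 CPM (counts scaled to library size by edgeR with the trimmed mean of M values) was reached by 98 members in control lung, 69 in control muscle and 95 in control blood. In all, 147 members reached it in at least 1 tissue and 39 in all 3. Bat gene lengths were not used here, so levels are compared between tissues and libraries but not between genes. Where members were ranked by CPM to choose those named, the ranks are not corrected for length.

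The largest group was chemosensory. It held 258 rows, of which 176 (68.22%) had no count. Among 204 olfactory receptor rows 142 had no count, and among 35 vomeronasal receptor rows, which detect pheromones, 29 had none. Of 7 trace amine receptor rows 2 had none, and of 9 rows of major urinary proteins, lipocalins that carry pheromones and are grouped here with the receptors, 3 had none. The next group, 238 rows named as predicted genes or cDNA clones, had 39 without a count. In the panel of 17 genes assembled as lost or inactivated in human, 1 had no count: Tlr11, a Toll-like receptor for microbial protein.

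**Figure D1:**
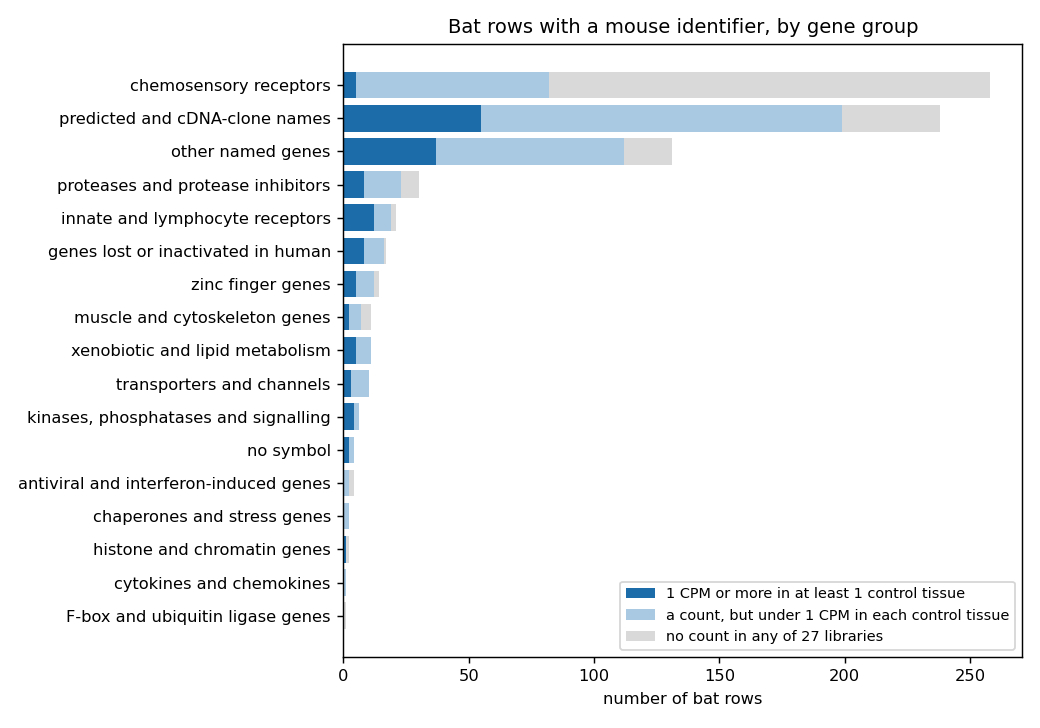
Number of bat rows with a mouse identifier in each gene group (horizontal axis), divided into rows with a mean of 1 CPM or more in at least 1 control tissue, rows with fewer counts, and rows with no count in 27 libraries. Of 258 chemosensory rows 176 had no count, while 1 of 17 rows in the panel of genes lost in human had none.

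Total counts ran from 9.29 to 33.3 M reads in the bat. Lung control library 3 was the shallowest and stood apart, with a median correlation of 0.954 with the other lung libraries (0.985 to 0.988 for the other 8) and 6.49% of its counts in non-coding RNA rows (3.2 to 3.68% in the others). Of 151 members with at least 90 counts in lung, 53 were highest in this library (8 to 28 in each other lung library). Of these 53, 26 were over 3 times the next library (0 to 2 in each other lung library). In blood, recovery library 2 stood apart by its correlation (0.924, against 0.961 to 0.981). There 38 of 121 members were highest (7 to 15 in each other blood library). Its share of non-coding RNA counts, 3.49%, lay within the 2.68 to 4.14% of the other blood libraries. The defining markers of lung, muscle and blood cells carry human identifiers that the files do not pair with names, so the tissue labels of the bat libraries were not checked against them.

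Tissue differences at control were compared to find where these genes are expressed before treatment. Of 163 members tested, 61 were higher and 9 lower in lung than in muscle, 47 were higher and 42 lower in lung than in blood, and 31 were higher and 58 lower in muscle than in blood. Here a call needed an adjusted p under 0.05 and at least a 2-fold difference by edgeR's quasi-likelihood test over all 18822 rows tested. The called share was 42.9% of members against 50.2% of all rows between lung and muscle, 54.6% against 50.8% between lung and blood, and 54.6% against 60.1% between muscle and blood. Control libraries of the 2 tissues did not overlap for 83 members between lung and muscle (50.9%, beside 67.8% of all rows). These members numbered 96 between lung and blood (58.9%, beside 62.7%) and 104 between muscle and blood (63.8%, beside 70.2%). By direction, 32.4% of all rows were higher and 17.8% lower in lung than in muscle, 30.9% higher and 19.9% lower in lung than in blood, and 31.7% higher and 28.4% lower in muscle than in blood.

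The split between directions depended on the scaling. With library size alone, 100 members were higher and 6 lower in lung than in muscle, 58 higher and 24 lower in lung than in blood, and 26 higher and 73 lower in muscle than in blood. The same scaling moved the median log2 difference of all rows from 0.54 to 1.93, from 0.29 to 1.04 and from 0.02 to -0.55 in these comparisons. The called differences of the genes named by rule kept their direction under it and under relative log expression scaling, except that of Rbak between lung and muscle. In bulk tissue, fewer cells of a type and less RNA per cell cannot be told apart.

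Lung carried the highest level of an aldehyde oxidase. Aox2, of a family of molybdenum enzymes that oxidise aldehydes and drugs and that is reduced to a single working gene in human, stood at 178, 409 and 106 CPM in the lung control libraries. It stood at 0.0515, 0.184 and 0 CPM in muscle and at 2.38, 1.17 and 1.18 CPM in blood. Every lung library was far above every library of the other tissues, with a log2 difference of 11.51 against muscle (SE 0.86, adjusted p = 3.6e-06) and 7.16 against blood (SE 0.66, adjusted p = 9.3e-06). The other members of the family in the table, Aox3 and Aox4, reached at most 0.552 and 0.124 CPM in any control library.

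Of 10 rows of transporters and channels 4 were tested. Of these, 3 were higher and none lower in lung than in muscle, and 3 were higher and 1 lower in lung than in blood. Among the 3, Slc47a2 was not called against blood without blood control 1. A row could pass the filter on low counts through lung alone. Slc47a2 had 67 counts in control lung, 2 in control muscle and 3 in control blood. These counts by direction are thus no test of the group. Abca17, a lipid transporter of the ATP-binding cassette family, stood at 34.7, 45.1 and 49.1 CPM in control lung. It stood at no more than 0.168 CPM in any control library of muscle or blood (log2 9.10 against muscle, 8.77 against blood). Its relative Abca16 stood at 10.7, 11.5 and 5.62 CPM in lung, with 0.876 to 1.78 CPM in muscle and 0 to 0.505 CPM in blood. Slc6a21, a solute carrier, ran the other way, at 0.616, 0.405 and 0.432 CPM in lung against 2.2, 7.05 and 2.13 CPM in blood (log2 -2.96, adjusted p = 0.007). Fmo6, a flavin-containing monooxygenase, was graded: 45.4, 55.9 and 40.8 CPM in lung, 14.8, 15.1 and 14 CPM in muscle and 0.762, 0.0653 and 0.224 CPM in blood. The lung libraries lay above the muscle libraries by a log2 difference of 1.68 (adjusted p = 0.0075), and those above the blood libraries by 5.27 (adjusted p = 1.1e-05). Gstt3, a glutathione transferase, stood at 5.22, 6.42 and 4.82 CPM in lung (log2 4.02 against muscle), and 2 counts in all were found in blood control. Of 5 tested members of xenobiotic and lipid metabolism, 3 were higher in lung than in muscle and 3 higher in lung than in blood. None was lower. Beside this group and the transporters, 32.4% of all rows tested were higher in lung than in muscle and 30.9% higher than in blood. The limit of the filter holds for this group too. Of the 3 above blood, Gsta4 was not called without blood control 1 or 2, any of the lung control libraries, or muscle control 1 or 3.

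A few lung genes had no count at all in blood at control, and some of these had none in muscle either. Ace3, of the angiotensin-converting enzyme family, stood at 20.7, 7.2 and 3.09 CPM in lung with no count in muscle or blood. Taking 3 counts over the 3 libraries as the limit, it was at least 216.3-fold higher than in muscle and at least 215-fold higher than in blood. The serine protease gene Prss44 was at least 72.64-fold higher in lung than in muscle and at least 72.21-fold higher than in blood. Pcdhb21, a protocadherin of cell adhesion, stood at 6.1, 5.64 and 4.69 CPM in lung and 2.78, 2.58 and 1.94 CPM in muscle, with no count in blood (at least 104-fold and 44.73-fold lower there). Such limits cover counting error only.

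Mroh8 was called higher in lung with 1 library far above the others. Its lung levels were 1.46, 2.15 and 16.4 CPM, the last in the library that stood apart, against 0.567 to 1.1 CPM in muscle. Its log2 difference of 3.02 from muscle (adjusted p = 0.022) was 1.11 without lung control 3 and was then not called. Leaving out muscle control 1, 2 or 3 gave 2.80, 2.99 and 3.28, none of them called. The predicted gene Gm6034 showed the same: 80.5, 53.5 and 433 CPM in lung against 31, 44 and 48.7 CPM in muscle, a log2 difference of 2.20 (adjusted p = 0.018) that was 0.67 and not called without that library. For Gm6034 it was 2.02 and not called without muscle control 1, and 1.98 and not called with only the libraries of the 2 tissues. Without lung control 3, 72, 92 and 106 members were called in the comparisons of lung with muscle, lung with blood and muscle with blood.

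Muscle had few members above the other tissues, and some of these were far above them. Cox8b, whose coding sequence is given above, stood at 395, 364 and 249 CPM in muscle, at 4.15, 3.9 and 14.8 CPM in lung and at 4.75, 5.09 and 6.12 CPM in blood. The muscle libraries did not overlap the others, with a log2 difference of 5.48 from lung (SE 0.56, adjusted p = 2.3e-05) and 5.98 from blood (SE 0.57, adjusted p = 6.2e-06). Mettl21e, a lysine methyltransferase known from skeletal muscle, stood at 107, 182 and 106 CPM in control muscle. It stood at no more than 0.343 CPM in any control library of lung or blood. BC048679 stood at 10.5, 7.97 and 8.22 CPM in control muscle and at no more than 1.03 CPM in the control libraries of lung and blood.

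Of the pheromone-carrying lipocalins, 3 were found almost wholly in muscle. Mup6 stood at 22.7, 73.8 and 31.7 CPM in muscle control with no count in lung or blood control, which makes it at least 1079-fold higher than in lung and at least 756.1-fold higher than in blood. Mup8 stood at 0.309, 6.25 and 11.1 CPM and Mup9 at 0.206, 5.09 and 6.08 CPM in the same muscle libraries. Major urinary protein genes are near-identical copies of each other in the mouse, so how reads divide between these rows is uncertain. In the mouse libraries Mup6 had no count in any tissue at control.

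Rbak, a KRAB zinc finger gene, shows how small differences turn on the scaling. It stood at 96.2, 107 and 110 CPM in muscle, 51.4, 56.9 and 38.1 CPM in lung and 69.6, 85.1 and 52.2 CPM in blood. Its log2 difference of lung from muscle was -1.11 (adjusted p = 0.0036), but 0.28 with library size as the only scaling and -0.97, below the 2-fold limit, without lung control 3. Gpr165, an orphan receptor, had like levels in lung (40.8, 45.5 and 29.5 CPM) and muscle (31, 51.9 and 58.9 CPM) and was higher in both than in blood, by log2 2.92 and 3.23.

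**Figure D2:**
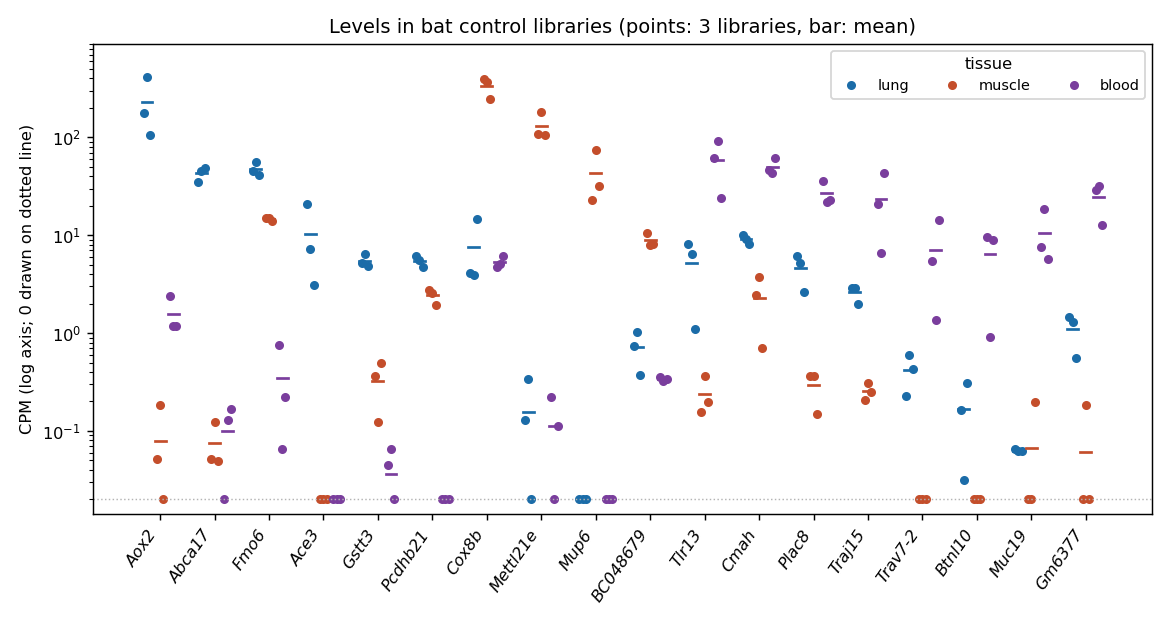
CPM on a log axis for 18 members in bat control lung, muscle and blood (points are the 3 libraries of a tissue, bars their mean; values of 0 are drawn on the dotted line). The lung group runs from Aox2 to Pcdhb21, the muscle group from Cox8b to BC048679, and the blood group from Tlr13 to Gm6377; Mup6 has counts in muscle only.

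Of 21 rows of innate and lymphocyte receptors, 11 reached a mean of 1 CPM in control blood, 3 in control lung and 1 in control muscle. A row could pass the filter on low counts through 1 tissue alone, and the T cell receptor segments varied together. The counts by direction are thus given as values and are no test of the group. Of the 12 rows tested, none was higher and 8 were lower in lung than in blood. None was higher and 11 were lower in muscle than in blood, while 8 were higher and 1 lower in lung than in muscle. Their median log2 differences were -3.05, -7.14 and 3.17, beside 0.29, 0.02 and 0.54 over all rows. Of all rows tested, 19.9% were lower in lung than blood, 28.4% lower in muscle than blood and 32.4% higher in lung than muscle. The 1 lower in lung than in muscle was Cd209f, a C-type lectin (log2 -3.99), chosen for mention after its value was seen. With library size alone these counts were 0 and 7, 0 and 11, and 11 and 0. The 8 higher in lung than in muscle were 5 without lung control 2, muscle control 1 or muscle control 3, and 4 with only the libraries of those 2 tissues. The 8 lower in lung than in blood were 5 without blood control 3. No receptor row was called lower in lung than in muscle without lung control 1, lung control 3, muscle control 2 or muscle control 3.

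Most of these rows are T cell receptor segments, which T cells join and express as their antigen receptors. Traj15, printed above, stood at 20.7, 6.53 and 43.6 CPM in blood, 2.92, 2.9 and 1.98 CPM in lung and 0.206, 0.307 and 0.249 CPM in muscle. The 3 tissues did not overlap, with log2 differences of -3.18 (lung minus blood, adjusted p = 0.0011) and 3.33 (lung minus muscle, adjusted p = 0.0022). Traj21 and Traj37 had the same order of tissues, with 12.1, 4.96 and 26.8 CPM and 10.8, 5.02 and 27 CPM in blood. The variable segment Trav7-2 stood at 5.51, 1.37 and 14.1 CPM in blood and had no count in muscle, at least 132.8-fold lower there. Trav14-2 was at least 111-fold lower in muscle than in blood.

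The segments differed from library to library together within blood. Their sum over 14 segments was 69.58, 24.08 and 145.3 CPM in blood control, 106.9, 146.1 and 57.81 CPM at heat, and 77.93, 14.96 and 111.6 CPM at recovery. Each condition spanned a wide range and the conditions overlapped. The lowest sum was in recovery library 2, the library that stood apart. In lung the sum lay between 7.042 and 13.59 CPM and in muscle between 0.4122 and 4.793 CPM over the 9 libraries of each tissue.

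Members of several other kinds were also highest in blood. Plac8, a small cysteine-rich protein of immune cells, stood at 35.6, 22.1 and 23.1 CPM in blood, 6.07, 5.17 and 2.66 CPM in lung and 0.361, 0.368 and 0.15 CPM in muscle. Its log2 difference was -2.54 between lung and blood (adjusted p = 0.00043) and -6.51 between muscle and blood (adjusted p = 1.8e-06). Nol6, a nucleolar protein of ribosome assembly, stood at 74.6, 212 and 67.8 CPM in blood against 11.1, 11.8 and 7.41 CPM in lung (log2 -3.55) and 20.5, 19.4 and 21.4 CPM in muscle (muscle minus blood -2.53). The butyrophilin-like gene Btnl10 had no count in muscle and was at least 129.4-fold higher in blood. Muc19, a gel-forming mucin, stood at 7.53, 18.6 and 5.67 CPM in control blood and at no more than 0.199 CPM in control lung or muscle. An olfactory receptor row, Olfr390, stood at 9.5, 6.46 and 8.42 CPM in control blood and at 0 to 0.613 CPM in control lung and muscle.

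Cmah belongs to the panel of genes lost or inactivated in human. Its enzyme converts the sialic acid Neu5Ac to Neu5Gc, a step that human cells lack. Cmah (ENSMUSG00000016756, chr13:24327404-24477377 in GRCm38) stood at 46, 42.7 and 62.2 CPM in blood, 10, 9.16 and 8.09 CPM in lung and 2.47, 3.74 and 0.698 CPM in muscle. The 3 tissues did not overlap, and each neighbouring pair in that order was called: lung minus blood -2.47 (SE 0.46, adjusted p = 0.0011) and lung minus muscle 1.98 (SE 0.47, adjusted p = 0.0052).

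Fbxw17, an F-box and WD-repeat gene of the family that selects proteins for ubiquitination, had a flatter profile. Fbxw17 (ENSMUSG00000037816, chr13:50417864-50433780) stood at 15.7, 23.1 and 16.5 CPM in lung, 9.79, 15.8 and 14.2 CPM in muscle and 3.99, 6.53 and 10.2 CPM in blood. Lung was higher than blood (log2 1.41, SE 0.38, adjusted p = 0.0087). Neither lung and muscle (0.46, SE 0.37, adjusted p = 0.31) nor muscle and blood (0.95, SE 0.38, adjusted p = 0.046, under the 2-fold limit) made the call. With library size alone the log2 difference of lung from muscle was 1.85 and was called.

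Among the Toll-like receptors of the panel, Tlr13 was the one expressed. Tlr13, an endosomal sensor of bacterial ribosomal RNA, stood at 61.4, 90.9 and 23.8 CPM in blood, 8.08, 6.45 and 1.11 CPM in lung and 0.155, 0.368 and 0.199 CPM in muscle. The order blood, lung, muscle held without overlap, with log2 differences of -3.49 (lung minus blood, adjusted p = 0.0013) and 4.43 (lung minus muscle, adjusted p = 0.0012). Tlr11 had no count and Tlr12 reached at most 0.0653 CPM in the control libraries.

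Nradd, of the same panel, was graded from blood to muscle. Nradd, a death-domain gene related to neurotrophin receptors, stood at 12.5, 33.5 and 9.26 CPM in blood, 3.47, 3.55 and 3.89 CPM in lung and 1.18, 0.981 and 0.15 CPM in muscle, and all 3 pairs of tissues were called. The log2 difference of Nradd between lung and blood was -1.58 and not called without blood control 2, and -1.54 and not called with library size alone. The remaining genes of the panel described here stayed below 10 CPM in the control libraries. Adam1a and Adam1b, which encode a sperm surface metalloprotease subunit, were present in all 3 tissues at 3.09 to 9.22 CPM and 1.35 to 4.45 CPM, and no tissue pair was called for either. Gulo stood at 1.49, 1.41 and 0.548 CPM in muscle, with 1 count in lung control and none in blood control. Uox reached at most 0.281 CPM. Trpc2, an ion channel of vomeronasal neurons, reached at most 1.35 CPM and Slc7a15 at most 0.436 CPM. Nepn and Ctf2 reached at most 0.258 and 0.0618 CPM.

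A mouse row of the same symbol existed for 643 members, and its levels are set beside those of the bat without a test, since the tables were normalized separately. In both species 65 members reached 1 CPM in at least 1 control tissue, and for 40 of these the highest tissue was the same (15 lung, 7 muscle, 18 blood). Another 48 reached it in the bat alone, 57 in the mouse alone and 473 in neither. Cmah was highest in blood in the mouse too (268 and 256 CPM, against 34.1, 28.6 and 33.7 CPM in lung), as was Tlr13 (34 and 51.5 CPM). Cox8b stood at 65, 70.2 and 77.3 CPM in mouse muscle.

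The aldehyde oxidases differed in which copy was found in lung. In the mouse lung Aox3 stood at 121, 141 and 122 CPM and Aox2 at 0.0288, 0 and 0.0605 CPM. In bat control lung the means were 231.1 CPM for Aox2 and 0.3282 CPM for Aox3. Aldehyde oxidases are close relatives, and which bat gene carries which mouse name rests on the authors' annotation. Cxcl15, a lung chemokine, stood at 413, 466 and 397 CPM in mouse lung and had no count in the bat lung control libraries. The interferon-induced gene Ifi209 stood at 144 and 144 CPM in mouse blood and at 0 in every bat control library. Fmo6 was at most 0.323 CPM in the mouse control libraries.

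**Figure D3:**
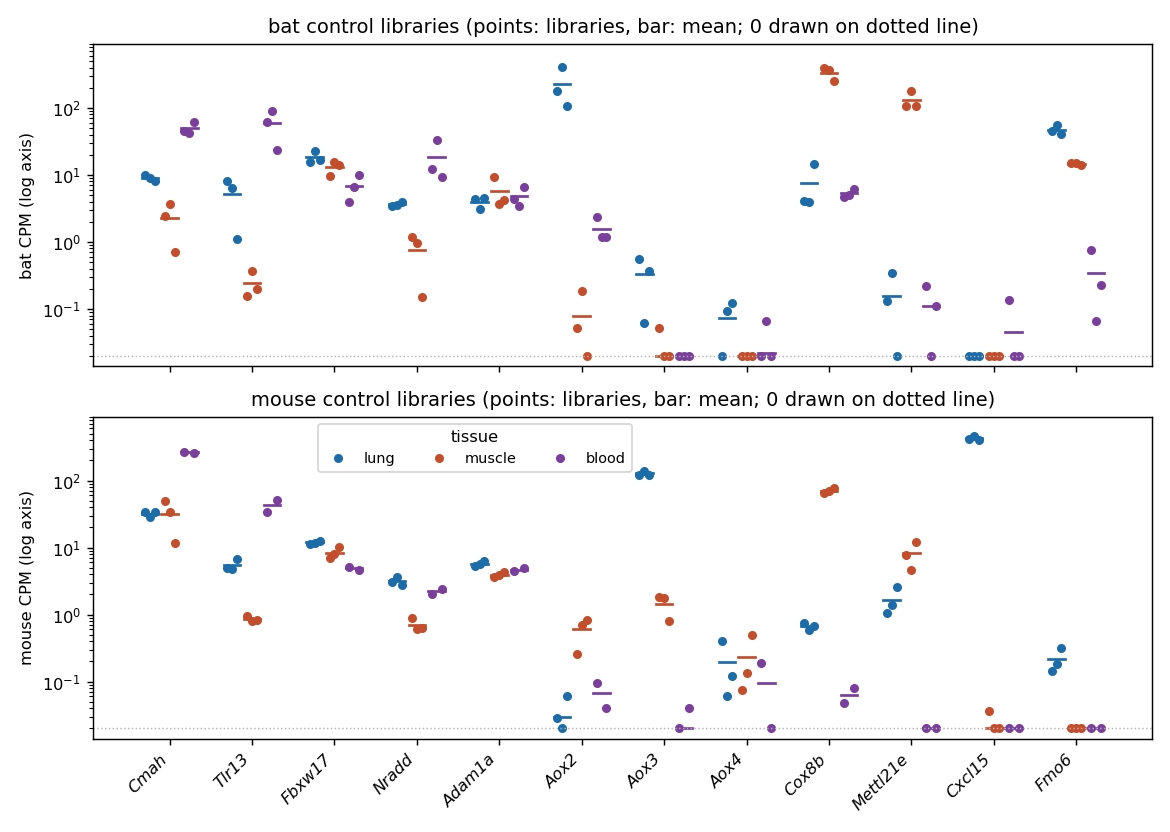
Control levels of 12 genes in the bat (upper panel) and in the mouse (lower panel), as CPM on log axes, with points for libraries (3 per tissue, 2 in mouse blood), bars for means and values of 0 on the dotted line. Cmah and Tlr13 are highest in blood in both panels, while Aox2 is high in bat lung and Aox3 in mouse lung.

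Heat and recovery were then compared with control, and recovery with heat, within each bat tissue. No member was called by edgeR at an adjusted p under 0.05 in any of the 9 comparisons. Few of all rows were called: 0% at heat and 0.047% at recovery in lung, with 0.125% between recovery and heat. In muscle 0.0376% were called at heat, 2.67% at recovery and 0.00627% between them, and in blood 0% in each comparison. Members tested numbered 164 in lung, 105 in muscle and 132 in blood. Those with an unadjusted p under 0.05 at heat, at recovery and between the 2 numbered 24, 32 and 11 in lung (14.6, 19.5 and 6.71% of members, beside 8.68, 16.1 and 11.3% of all rows). In muscle they numbered 13, 14 and 7 (12.4, 13.3 and 6.67%, beside 17.8, 22.5 and 10.5%), and in blood 3, 1 and 13 (2.27, 0.758 and 9.85%, beside 2.19, 5.29 and 10.4%). DESeq2 called 0, 3 and 1 members in lung, of 46, 159 and 135 with an adjusted p, beside 0.139, 4.73 and 2.5% of all rows with one. It called 4, 7 and 0 in muscle, of 71, 105 and 89 (5.94, 10.2 and 1.38% of all rows), and 0, 0 and 1 in blood, of 127, 127 and 113 (0, 0.579 and 0.782%). The comparisons with control share their control libraries.

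Members whose libraries did not overlap between the 2 groups were counted beside the share of all rows. In lung they numbered 16 of 164 members at heat (9.76%, beside 10.2% of all rows). At recovery they numbered 36 (22%, beside 21.3%), and between recovery and heat 34 (20.7%, beside 25.7%). In the same order they numbered 23 of 105 in muscle (21.9%, beside 24.9%), 17 (16.2%, beside 26.2%) and 15 (14.3%, beside 16.5%). In blood they numbered 9 of 132 (6.82%, beside 11.1%), 3 (2.27%, beside 10.4%) and 18 (13.6%, beside 16.3%). Median log2 differences of members lay between -0.17 and 0.16 in all 9.

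Gm6034 (chr17:36042961-36058645 in GRCm38) had the smallest p of any member at heat in muscle and in lung. In muscle it stood at 31, 44 and 48.7 CPM in control, 11.1, 10.1 and 8.97 CPM at heat and 28.5, 10.3 and 15.5 CPM at recovery. All heat libraries lay below all control libraries, with a log2 difference of -1.99 (SE 0.34) that missed the threshold at an adjusted p of 0.0614. DESeq2 called it at -2.01 with an adjusted p of 4.318e-06, and edgeR called it when the replicate number was a term in the fit (-2.02, adjusted p = 0.04947, and -1.99, adjusted p = 0.04516, with only the control and heat libraries). It was also called with library size alone, with no filter on low counts, with only the libraries of the 2 groups, and without any single one of the muscle recovery libraries.

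In lung Gm6034 stood at 80.5, 53.5 and 433 CPM in control, 42.7, 20.3 and 29.1 CPM at heat and 109, 40.1 and 46.7 CPM at recovery. Its log2 difference at heat was -2.76 (adjusted p = 0.572) and -1.11 without lung control 3. In blood it stood at 230, 332 and 218 CPM in control, 104, 36.3 and 96.4 CPM at heat and 231, 484 and 66.6 CPM at recovery (heat minus control -1.75, SE 0.68, adjusted p = 1). Heat libraries were thus below control libraries without overlap in each tissue. The lung and blood differences were not called under any setting run, while the muscle difference was called under the settings given above and not in the fit reported first. In the mouse this row stood at 0 to 1.03 CPM.

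Fbxw17 had its lowest mean at recovery in each tissue, though its recovery libraries overlapped those of heat in muscle and those of control in blood. In lung it stood at 15.7, 23.1 and 16.5 CPM in control, 15.8, 24.2 and 29.3 CPM at heat and 11.2, 13.8 and 9.58 CPM at recovery. The recovery libraries lay below all others, with a log2 difference from heat of -1.03 (SE 0.25, adjusted p = 0.202), which DESeq2 called at -1.05 (adjusted p = 0.01261). In muscle Fbxw17 stood at 7.11, 11.6 and 11.9 CPM at heat and 6.35, 7.71 and 2.61 CPM at recovery (recovery minus control -1.24, SE 0.37, adjusted p = 0.0901). In blood it stood at 8.6, 16 and 13.3 CPM at heat and 6.65, 5.49 and 5.06 CPM at recovery (recovery minus heat -1.13, SE 0.44, adjusted p = 0.469). In the mouse Fbxw17 stood at 7.21, 8.22 and 5.26 CPM in heat lung and 11.9, 11.9 and 10.3 CPM in recovery lung, the opposite order to the bat, which was not tested between species.

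**Figure D4:**
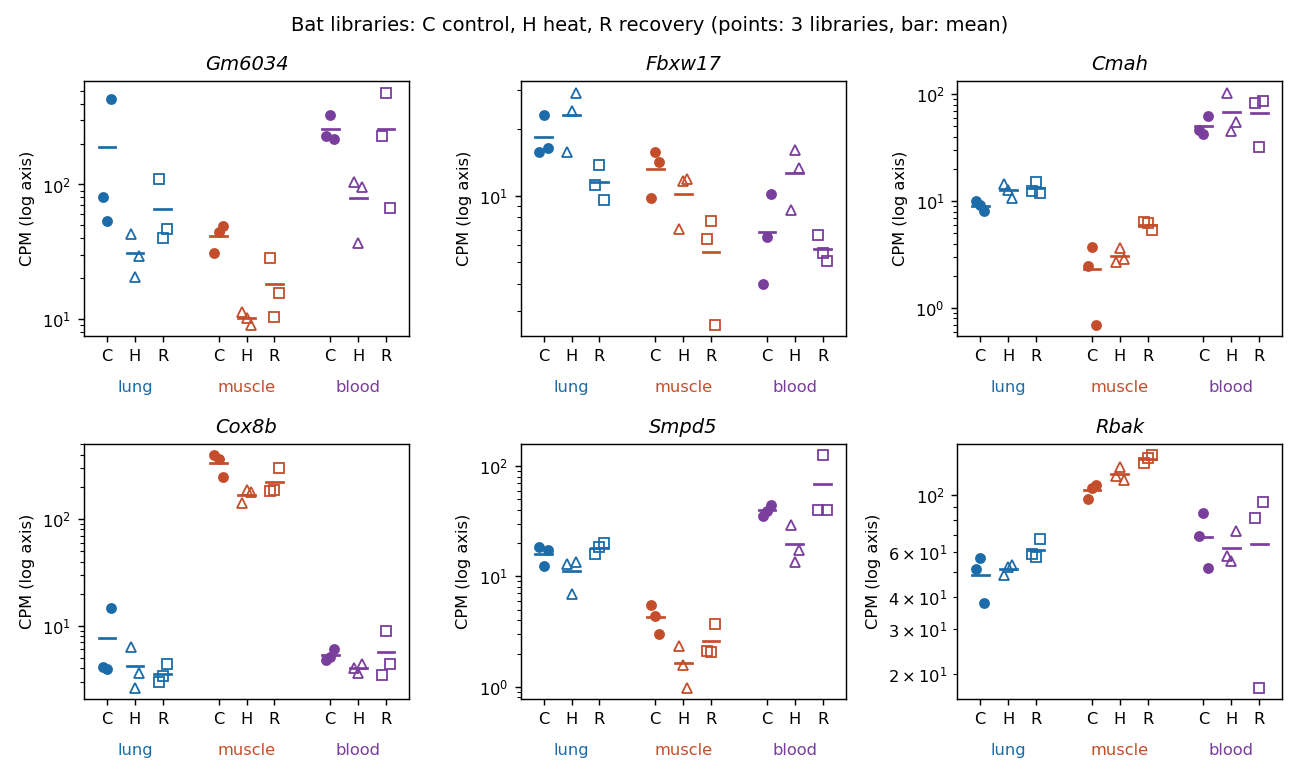
CPM on log axes of 6 members in the 27 bat libraries, by tissue and by condition (C control, H heat, R recovery), with points for the 3 libraries of a group and bars for their mean. Heat libraries of Gm6034 lie below control libraries in each tissue, and recovery libraries of Fbxw17 below heat libraries in lung and blood.

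Cmah was higher at recovery in muscle in every library without reaching the threshold. Its muscle levels were 2.47, 3.74 and 0.698 CPM in control, 2.7, 3.63 and 2.9 CPM at heat and 6.35, 6.26 and 5.4 CPM at recovery (recovery minus control 1.40, SE 0.47, adjusted p = 0.12), and DESeq2 called this difference at 1.38 (adjusted p = 0.04262). In lung it stood at 14.5, 12.7 and 10.8 CPM at heat and 12.5, 15.2 and 12 CPM at recovery, above the control libraries. In blood the conditions overlapped, with 103, 44.9 and 55.1 CPM at heat and 82.8, 31.8 and 85.5 CPM at recovery.

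Other muscle genes with small p-values were not called by edgeR in the fits over all 9 muscle libraries. Against its control levels given above, Cox8b stood at 141, 188 and 179 CPM at heat and 183, 188 and 300 CPM at recovery, with a log2 difference at heat of -0.95 (SE 0.23, adjusted p = 0.1). In mouse muscle it stood at 87.1, 88.5 and 98.3 CPM at heat, above the mouse control libraries. The cDNA clone E130116L18Rik stood at 5.56, 5.15 and 7.33 CPM before and 1.38, 2.26 and 1.79 CPM after heat (-1.69, adjusted p = 0.109). At recovery BC048679 stood at 3.09, 3.83 and 5.1 CPM (-1.14, adjusted p = 0.0793). Rbak stood at 134, 140 and 143 CPM, above all control libraries (0.42, adjusted p = 0.0803). Aox2, high in lung, stood at 0.291, 0.776 and 1.09 CPM in recovery muscle (3.18, SE 0.99, adjusted p = 0.0971). Its muscle control libraries held 4 counts in all, so the size of this difference is uncertain. Between heat and recovery, Casp16-ps had the smallest p, at 5.28, 9.05 and 4.52 CPM and 3.85, 0.983 and 1.4 CPM (-1.63, adjusted p = 0.354).

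In lung the smallest p-values at recovery involved the control library that stood apart. Gm17571 stood at 0.616, 0.592 and 12.8 CPM in the control libraries and at 0.17, 0.202 and 0.166 CPM in those of recovery, a log2 difference of -4.84 that was -1.74 without lung control 3. Gm10135 moved likewise from -3.02 to -1.40 and Gm11096 from -3.20 to -2.01. None of these was called by edgeR with or without that library (adjusted p = 0.156 for each with it). At heat, Hist1h2af stood at 5.13, 11.5 and 18 CPM before and 3.71, 4.1 and 4.89 CPM after heat (-1.52, adjusted p = 0.572), and it is 1 of many near-identical H2A histone genes, so its reads are uncertain. Egfem1 stood at 1.2, 1.5 and 0.618 CPM before and 0.268, 0.203 and 0.134 CPM after heat (-2.48, adjusted p = 0.572).

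In blood no member was called by edgeR, and those with the smallest p-values are given as values. Smgc, which in the mouse shares its locus with Muc19, stood at 1.26, 2.74 and 0.617 CPM in control, 5.22, 7.37 and 14.7 CPM at heat and 2.43, 0.153 and 1.22 CPM at recovery (heat minus control 2.54, SE 0.86, adjusted p = 1). Muc19 stood at 9.12, 9.86 and 24.6 CPM at heat and 4.98, 0.458 and 4.38 CPM at recovery, with recovery below heat and control in each library (recovery minus control -1.75, adjusted p = 0.879). Fndc3c1, a gene with fibronectin type III domains, stood at 17, 27.1 and 4.83 CPM in the control libraries, which overlapped its recovery levels of 7.41, 2.98 and 4.68 CPM (-1.75, adjusted p = 0.879). The interferon-induced gene Oasl2 stood at 0, 0.783 and 0.0561 CPM in the control libraries, overlapping its recovery levels of 0.289, 4.5 and 1.64 CPM (2.97, adjusted p = 0.879). Olfr390 stood at 12, 9.2 and 30.5 CPM at heat, overlapping its control levels (1.08, adjusted p = 1). Smpd5, a sphingomyelin-cleaving enzyme, stood at 35.3, 39.2 and 44.2 CPM in control, 29, 13.4 and 17.2 CPM at heat and 39.9, 125 and 39.8 CPM at recovery. Its log2 difference of recovery from heat was 1.84 (adjusted p = 0.469) and 0.99 without recovery library 2. Ptprv, a receptor-type phosphatase, stood at 3.12, 46.2 and 3.54 CPM at recovery, and its difference from heat of 3.42, called by DESeq2, was 0.92 without that library. Both members grouped as chaperones and stress genes were near 0 in all 27 libraries, with Hsf3, a heat shock factor, at 0.179 CPM or less and the co-chaperone Dnajb3 at 0.124 CPM or less.

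Whether lung and muscle differed in their changes was tested in a joint fit of their 18 libraries. Of 186 members tested, edgeR called 0 for the heat change and 0 for the recovery change, beside 0.00504% and 1.23% of 19860 rows. Unadjusted p-values under 0.05 were found for 16 members (8.6%, beside 9.94% of all rows) and 25 members (13.4%, beside 16.8%). DESeq2 was not run on this fit.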

How the data were processed

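Per the labels' protocols, TRIzol served for RNA extraction and NEBNext Ultra Directional reagents for the libraries. Per the submitters' processing notes, STAR 2.7 and featureCounts were used, and GRCm39 is the build listed for all samples. The bat assembly, its annotation and the strand setting are not given in the sources used here, so reads of overlapping and antisense genes cannot be told apart (20 members have an antisense row). The deposited values are raw counts per gene, which the authors did not normalize. Each bat tissue was fitted over its 9 libraries, and the control tissues over 9, in edgeR 4.0.16 (limma 3.58.1, R 4.3.3): filterByExpr (minimum count 10, total 15), TMM, robust quasi-likelihood test, Benjamini-Hochberg adjustment over all rows. Printed levels are edgeR CPM with TMM over all 27 bat (or 24 mouse) libraries. No library of a group was a copy of another: their counts differed by 24.9 times counting error or more. Same-numbered libraries deviated together, with all 3 correlations above 0.1, in muscle between control and heat (0.168 to 0.202) and in blood between control and recovery (0.242 to 0.388). The labels do not say what a number shares, so this pairing comes from the data alone. Scripts were tested on simulated data. DESeq2 1.42.0 and the settings in the closing section were alternatives.

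The members and gene lists were chosen with earlier results of these data known. Named genes are the lost-in-human panel, the 8 highest members of each control tissue, up to 8 called members per direction and tissue comparison (at least 5 CPM, no overlap), the 3 smallest p-values per condition comparison, and up to 4 members of each list by control level.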

Additional observations from a re-analysis of the deposited data

How the results depend on the processing

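No member was called between conditions in bat blood or bat lung by edgeR under the alternatives run. DESeq2 called 3 members in lung at recovery (Gm20721, Gm10135 and Gm11096), 1 in lung between recovery and heat (Fbxw17), 4 in muscle at heat (Gm6034, Cox8b, E130116L18Rik and Smpd5), 7 in muscle at recovery (Aox2, Gm6034, Fbxw17, Fer1l4, Rbak, BC048679 and Cmah) and 1 in blood between recovery and heat (Ptprv); the cause was not tested. In muscle at heat the count was 1, Gm6034, with library size alone, with no filter, with the replicate block and with only the 2 groups compared, and it lay between 0 and 1 when single libraries were left out. In muscle at recovery it lay between 0 and 1, the 1 being E130116L18Rik without recovery 3.

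Between tissues, leaving out single libraries gave 61 to 80 members for lung against muscle, 78 to 100 for lung against blood and 87 to 106 for muscle against blood, and 49, 57 and 73 members were called in the full fit and in each of those runs. With library size alone 106 were called for lung against muscle, and Rbak turned from -1.11 to 0.28. The library-size setting was chosen after seeing the data.

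In each comparison other than muscle control to heat and blood control to recovery, at least 1 same-numbered pair correlated at 0.1 or less. The numbers were not taken as pairs there, nor in the joint fit of lung and muscle libraries. In control lung against muscle, same-numbered pairs correlated at 0.089 to 0.199 and other pairs at -0.136 to 0.008. In muscle between heat and recovery these ranges were 0.029 to 0.065 and -0.077 to 0.028. With the replicate block, all 13 genes named by rule stayed called for control lung against muscle. The replicate block changed 1 count between conditions, from 0 to 1 in muscle at heat (Gm6034), both over all 9 libraries and with only the 2 groups, and left 0 in blood at recovery in both fits. The block with only the 2 groups was chosen after seeing the data. Depth limits rows with few counts: 157 members had 1 to 9 counts in all.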
